A study of Saccharomyces cerevisiae with 6 samples.

Results

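In yeast cells released from a G1 arrest, 37 of the 6144 array spots (0.656% of the 5642 spots usable in both assays) had their lowest value at 60 min both for active and for total RNA polymerase II (RNAP II). The members were picked by their measured values. For genomic run-on (GRO), the mean log2 ratio at 60 min had to lie at least 0.5 below the means at 0 and at 30 min. For chromatin immunoprecipitation of RNAP II (RNAp ChIP), it had to lie at least 0.4 below both. A log2 difference of 1 is a factor of 2. The falls to 60 min are therefore a description of how the members were chosen, whereas the rule set no limit on the change from 0 to 30 min, on the brightness of a spot or on its place on the filter. It did use the 0 and 30 min values, so the change between these times is not independent of the choice.

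The cells were wild type Saccharomyces cerevisiae of the laboratory strain BY4741, which according to the study's methods carried the plasmid pRS316 in all samples. They were held in G1 with the mating pheromone alpha factor, washed free of it, and collected at 0, 30 and 60 min after release. By the labels, the 0 min cultures were in G1 and nuclear division was rare at 60 min. The 6 groups are GRO and RNAp ChIP at 0, 30 and 60 min, each with 3 replicates, and all came from this 1 strain and this 1 arrest, with no culture left unarrested. Because synchrony was by arrest and release, a time point is a mixture of cells enriched for a stage, and recovery from the pheromone cannot be told apart from cell cycle progress.

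RNAP II transcribes protein-coding genes, and a polymerase bound to a gene can be moving, paused or arrested. In GRO, cells are made permeable and polymerases that are already engaged resume for a short time with radiolabelled UTP, so the signal of a gene reflects elongation-competent polymerase. In RNAp ChIP, an antibody against the polymerase subunit Rpb3 recovers DNA cross-linked to the enzyme, whether or not it is moving. A gene that is lowest at a time in both measurements thus has less bound and less elongation-competent polymerase then, relative to other genes. It need not be low in absolute terms. Many yeast genes are transcribed in waves tied to stages such as G1, S phase or mitosis, and alpha factor itself switches on mating genes.

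The nylon filters carry whole coding sequences as probes, together with ribosomal DNA spots, but spots are identified here by array row, column and position within a block of 16 spots, with no key from these positions to genes. For this reason no gene name, gene list or sequence is given, and members are named by position or by their values. The GRO level of a spot is its run-on RNA intensity divided by the genomic DNA intensity of the same filter, on the log2 scale. The ChIP level is the log2 ratio of immunoprecipitated DNA (IP) over whole cell extract (WCE) of the same replicate. Every hybridization was set to a median of 0, so a level is relative to the median spot and a fall shared by all genes cannot be seen.

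There were 34 hybridizations, of which 9 were with run-on RNA, 7 with genomic DNA, 9 with IP material and 9 with WCE. They had median intensities of 35.7 to 196.6 for run-on RNA, 48.3 to 165.8 for genomic DNA, 94.2 to 556 for IP and 99.6 to 616 for WCE, and 85 to 362 spots of each were at 0 and were treated as missing. The correlation between replicates of a time over all spots was 0.741 to 0.850 in GRO and 0.670 to 0.868 in ChIP. The titles and the descriptions of the 30 and 60 min ChIP samples contradict each other, and the descriptions were followed, with which the names of the deposited files also accord. If the titles are followed instead, none of the 37 members meets the rule and 32 other spots do, so the choice of the members rests on this reading of the labels.

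The lowest value at 60 min was far more often seen in 1 assay than in both. Of the spots usable in both assays, 383 met the GRO limits and 232 met the ChIP limits, and the 37 members are 9.66% of the former and 15.9% of the latter. For comparison, 4.11% of all usable spots met the ChIP limits. Of the same 383 spots that were lowest in GRO, 31 (8.09%) had their highest ChIP value at 60 min by the mirrored limits, against 6.61% of all usable spots. The mirror image of the members, spots highest at 60 min in both assays, held 61 spots, and 18 were highest in GRO and lowest in ChIP. These shares come from the limits themselves and carry no test.

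**Figure D1:**
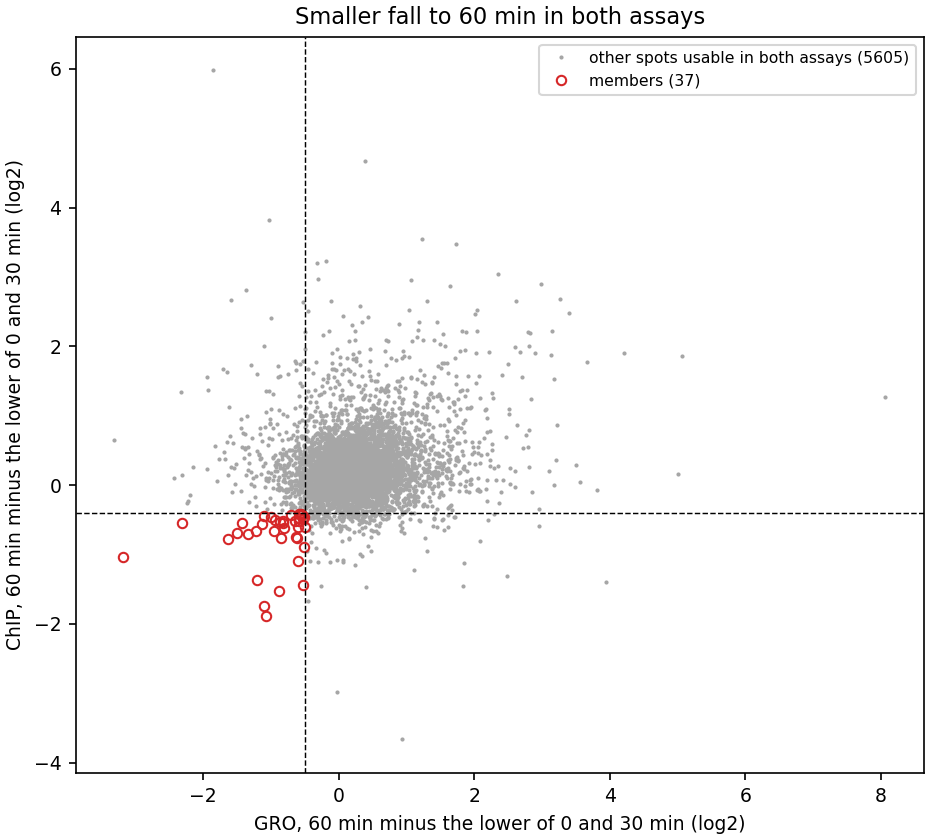
Difference between 60 min and the lower of 0 and 30 min for each of the 5642 spots usable in both assays, GRO on the x axis and RNAp ChIP on the y axis, both in log2 units, with dashed lines at the limits of -0.5 and -0.4. The 37 members (red circles) lie in the lower left corner by construction, and many of them lie close to a line.

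The members fell by similar amounts in both assays. In GRO, the median difference over the members was -0.94 between 60 and 0 min (lowest -4.20, highest -0.50) and -1.01 between 60 and 30 min (lowest -3.92, highest -0.52). In ChIP, the medians were -0.78 (lowest -3.76, highest -0.42) and -0.84 (lowest -2.41, highest -0.42). The corresponding medians over all usable spots were -0.03 and -0.04 in GRO and 0.03 and 0.03 in ChIP. The fall, taken from the mean of 0 and 30 min, was larger in GRO than in ChIP for 24 of the 37 members. Nothing is read from this count, since the rule asked for a fall of 0.5 in GRO and of 0.4 in ChIP. Over all usable spots the differences from 0 and from 30 min also varied more in GRO (SD 0.753 and 0.692) than in ChIP (SD 0.568 and 0.530). Across members the 2 falls had a Pearson r of 0.55 (Spearman rho 0.45, n = 37 spots that share all their hybridizations), given as a description. In 4 members all 4 differences were falls of at least 1.

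The edge of the group is not sharp. 16 members lay within 0.1 of at least 1 limit, and 33 other spots missed by less than 0.1. The member closest to a limit had a GRO difference of -0.50 between 60 and 0 min, inside by 0.0016. The closest spot outside met 3 limits with room to spare and had a ChIP difference of -0.3992 between 60 and 0 min.

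By their ratios, most members lay above the median spot at 0 and 30 min and below it at 60 min. The median member ranked at percentile 65.8 of all usable spots in GRO at 0 min, 69.1 at 30 min and 33.3 at 60 min. In ChIP the ranks were 79.1, 76.5 and 27.9. The number of members above the median spot was 25, 27 and 12 of 37 in GRO and 28, 28 and 15 in ChIP at 0, 30 and 60 min. The spread was wide at every time: at 0 min the levels reached from -3.85 to 2.62 in GRO and from -1.97 to 3.17 in ChIP. The intensities without a denominator ranked lower: the median member was at percentile 35.5, 30.7 and 23.8 in run-on RNA and at 37.1, 38.2 and 25.3 in IP at 0, 30 and 60 min, below the median spot at every time. These ranks describe the choice, since the rule compares the same values.

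The replicates of a time did not carry equal parts of this pattern. The medians over the members at 0 min were 0.91, 0.49 and 0.06 in the 3 GRO replicates and 0.45, 0.78 and 0.73 in the 3 ChIP replicates. At 30 min they were 0.52, 0.21 and 0.32 in GRO and 0.55, 0.57 and 0.45 in ChIP. At 60 min they were -0.51, -0.73 and -0.11 in GRO and -0.51, -0.25 and -0.28 in ChIP. All 6 medians at 60 min were below 0 and all 12 others were above it. The same values chose the members, so this order describes the choice.

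**Figure D2:**
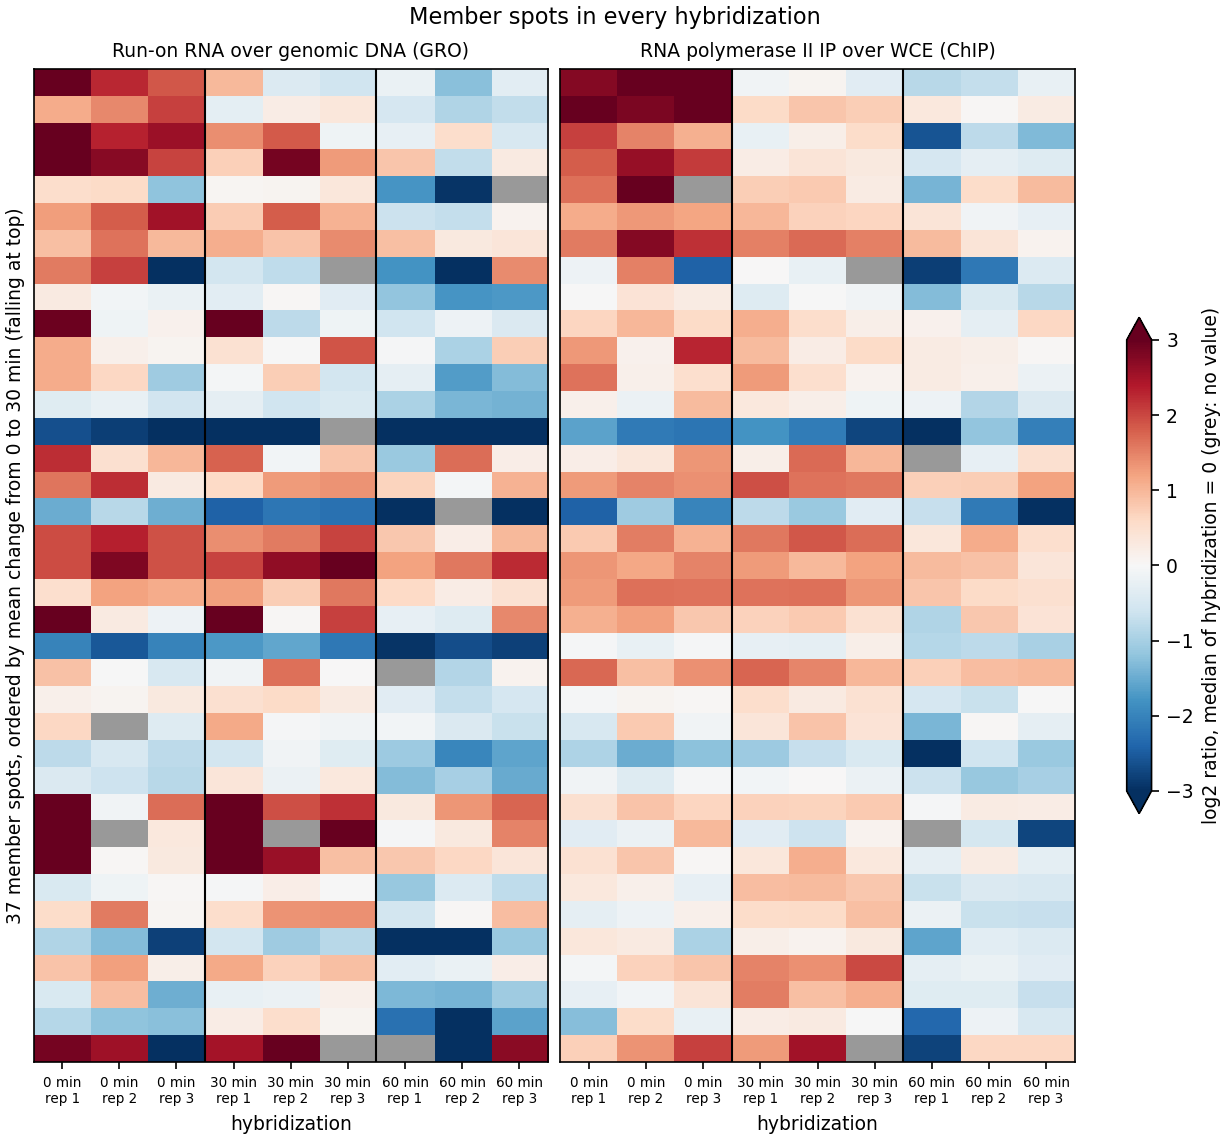
Level of the 37 members (rows, ordered by their mean change from 0 to 30 min) in each of the 9 GRO and 9 RNAp ChIP hybridizations (columns, grouped by time), as log2 ratios with the median of each hybridization at 0; grey marks a missing value and the colour scale stops at 3 and -3. The top rows are highest at 0 min, 14 members changed by less than 0.5 from 0 to 30 min in both assays, and several rows are dark red in GRO replicate 1 of both times.

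In the medians over the members, the numerators of the ratios changed more than the denominators. With each hybridization divided by its own median, the run-on RNA intensity of the members changed by a median of -0.84 (log2) between 60 and 0 min and of -0.69 between 60 and 30 min, and was lower at 60 min in 31 and 30 of 37 members. The IP intensity changed by -0.96 and -0.95 and was lower in 28 and 31 members. The denominators moved the other way by a smaller amount. The genomic DNA intensity changed by 0.29 and 0.22 and was higher in 26 and 26 members, and the WCE intensity changed by 0.24 and 0.10 and was higher in 24 and 20 members. Over all usable spots each of these 8 medians lay within 0.05 of 0. By these medians a typical member had a lower numerator at 60 min and, to a smaller extent, a higher denominator, which holds DNA and not polymerase. The rule chose low ratios at 60 min, so both directions follow in part from the choice and nothing is read from them. Without denominators, 17 of the 37 members met the rule among 273 spots. With 1 mean denominator for all hybridizations, 17 met it among 289.

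**Figure D3:**
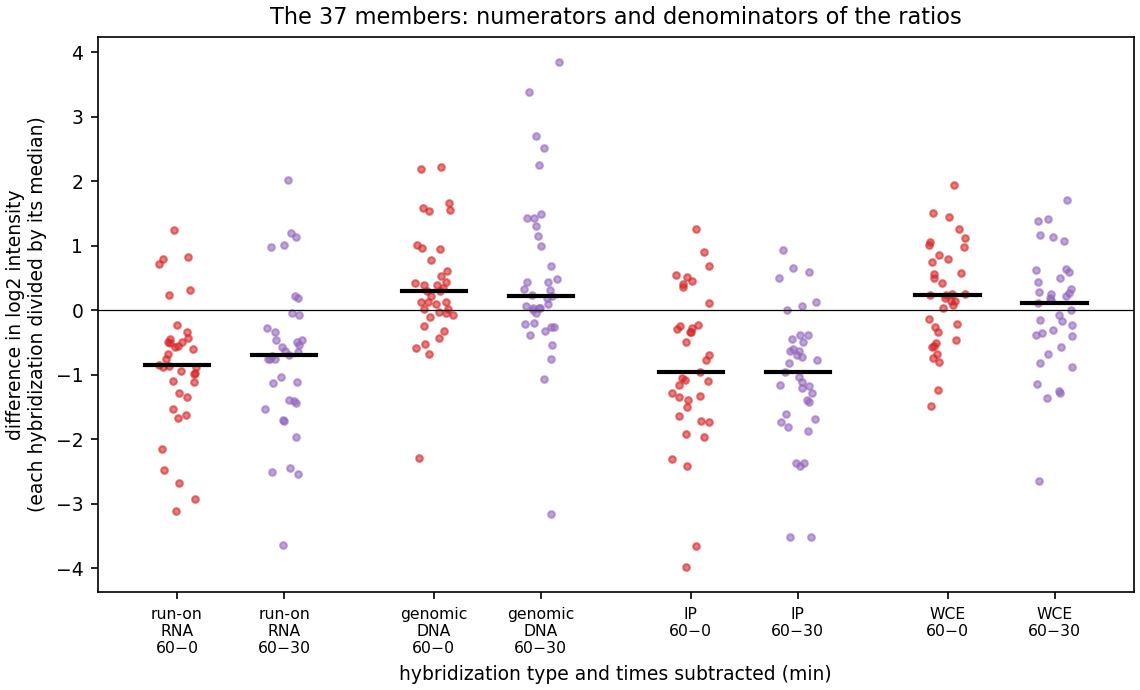
Difference in log2 intensity between 60 min and 0 min (red) or 30 min (purple) for each of the 37 members, with the 4 kinds of hybridization on the x axis; black bars are medians. Run-on RNA and IP lie mostly below 0 with medians of -0.84, -0.69, -0.96 and -0.95, and genomic DNA and WCE lie slightly above it.

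Most members were dim spots. The median member ranked at percentile 18.6 of all usable spots in genomic DNA intensity and at 18.1 in WCE intensity, 2 quantities that the rule did not use by themselves. The dimmest 25% held 22 members by genomic DNA and 20 by WCE. By either measure, 23 members (62.2%) were dim, against 27.3% of all usable spots and 29.5% of the 61 spots highest at 60 min in both assays. The spots that moved in opposite directions were also often dim, with 77.4% of the 31 that were lowest in GRO and highest in ChIP and 55.6% of the 18 with the reverse pattern. The median within-time SD of a member was 0.696 in GRO and 0.385 in ChIP, against 0.397 and 0.297 over all usable spots and 0.726 and 0.397 over the dim ones. All 18 values were present in 28 of 37 members, compared with 91.1% of all usable spots. The part of dimness in the choice of members was not tested. The 14 members that were not dim had median falls of -0.68 and -0.95 in GRO and of -0.77 and -0.83 in ChIP, from 0 and from 30 min, close to those of all members in ChIP and in the fall from 30 min in GRO.

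Some GRO hybridizations shared a filter. Replicate 1 at 0 min and replicate 1 at 30 min were both divided by the genomic DNA signal of filter 1, and replicate 3 at 0 min and replicate 2 at 60 min by that of filter 6. In 5 of the 32 members with all GRO values at 0 and 30 min (15.6%), replicate 1 lay more than 1 above the mean of the other 2 replicates at both times. Over all usable spots this was seen in 2.44% of 5277, and in 13.3% of 323 spots that were lowest at 60 min in GRO. With both filter 1 hybridizations left out, an alternative added after the data had been seen, 24 of the 37 members still met the rule among 32 spots. The part of filter 1 in the falls of those 5 members was not tested.

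The members lay in many parts of the filter. They occupied 33 of the 384 blocks, with at most 2 in a block (4 blocks), and 15 of 16 rows and 19 of 24 columns. Row 3 held the most, with 6, and columns 15 to 24 held 21 members (56.8%), against 41.4% of all usable spots. The rule does not define this range of columns, and whether the members were spread evenly was not tested. The other spots of the members' blocks changed little between 60 min and the mean of 0 and 30 min, with medians of -0.05 in GRO and -0.02 in ChIP, against -0.03 and 0.02 over all blocks. They were lower at 60 min in the blocks of 25 members in GRO (57.6% of all blocks) and of 23 members in ChIP (43.2% of all blocks). When the median of each block was removed from every hybridization, an alternative added after the data had been seen, 15 of the 37 members met the rule among 32 spots, and all 37 remained lower at 60 min than at both other times in GRO, 34 and 36 in ChIP.

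The change from 0 to 30 min differed between members in size and in the direction of the means. In GRO the median change was 0.22 (lowest -2.39, highest 2.84), with 22 members higher and 15 lower at 30 min. In ChIP it was 0.05 (lowest -3.29, highest 1.15), with 20 higher and 17 lower. The medians over all usable spots were -0.01 and 0.01. Both assays were higher at 30 min in 15 members and lower in 10, whereas GRO was higher and ChIP lower in 7 and the reverse held in 5. In 14 members both changes were smaller than 0.5. These counts describe directions of means, most of which did not pass a test.

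Few of these changes passed the test. The 0 and 30 min values also entered the rule, so the members and all spots are not compared on equal terms here. In limma fits over all usable spots with Benjamini-Hochberg adjustment, 2 of 37 members changed between 0 and 30 min in GRO at an adjusted p below 0.05, both lower, against 5.23% of all 5699 spots tested (3.39% lower, 1.84% higher). In ChIP 6 members changed, against 5.3% of 5829 spots, with 3 higher (background 1.72%) and 3 lower (background 3.59%). At an unadjusted p below 0.05 there were 5 members in GRO (background 22.5%) and 9 in ChIP (background 21.5%). The 2 members called in GRO were also among the 3 called lower in ChIP. With the replicate number as a block, 1 member remained in GRO. Same-numbered deviations in GRO at these times correlated at 0.50 in replicate 1, which shares a filter, and at 0.13 and 0.17 in the others. Whether the replicates are paired beyond this shared filter was not tested. With both filter 1 hybridizations left out, or without any 1 of 5 hybridizations (0 min replicate 2, each of the 3 at 30 min, or 60 min replicate 3), 0 members passed in GRO, with the members chosen again each time; under these 6 alternatives the limma fit gave 4 to 7 members at an unadjusted p below 0.05. In ChIP, 3 members passed without 0 min replicate 2, without any 1 of the 3 replicates at 30 min, or without 60 min replicate 3. The 3 ChIP falls passed whichever of the 9 ChIP hybridizations was left out.

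Complete separation of the replicates between 0 and 30 min was seen in a smaller share of members than of all spots in GRO and in a slightly larger share in ChIP. These differences from the array were not tested. All 30 min values lay above all 0 min values in 2 members in GRO (5.41%, background 13.9%) and in 7 in ChIP (18.9%, background 15%). They lay below in 4 members in GRO (10.8%, background 15.6%) and in 7 in ChIP (18.9%, background 14%).

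**Figure D4:**
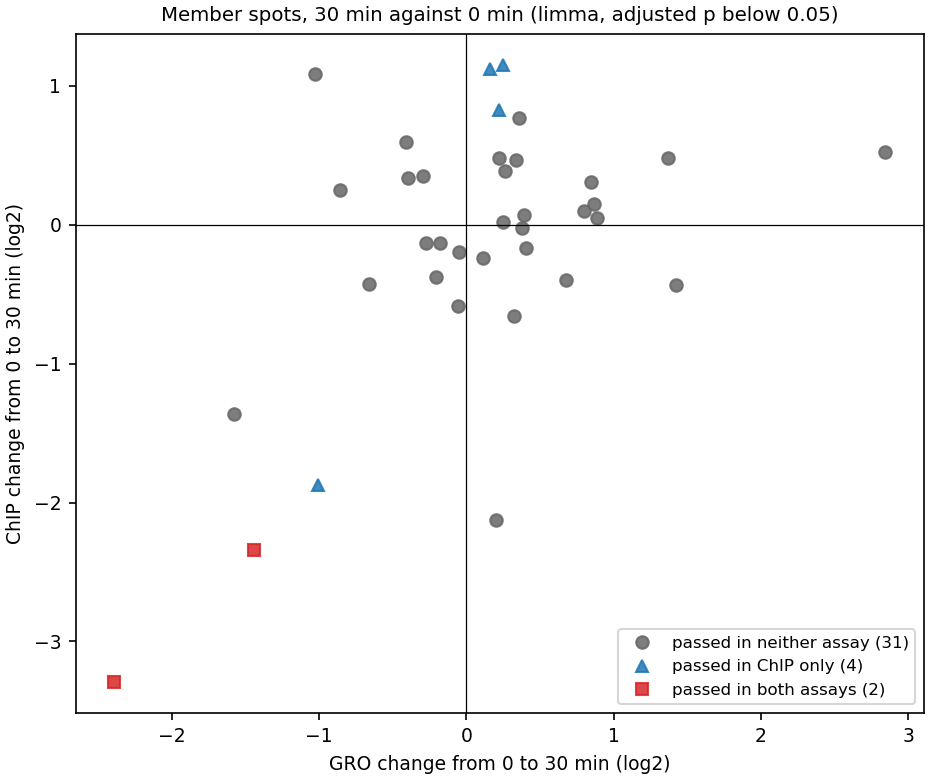
Change from 0 to 30 min of the 37 members, GRO on the x axis and RNAp ChIP on the y axis, in log2 units; symbols give the limma result at an adjusted p below 0.05. 14 members lie within 0.5 of 0 in both assays, and 4 lie in the lower left at changes below -1 in both.

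A small set of members was already falling at 30 min. 4 members fell by more than 1 between 0 and 30 min in both assays, a division made after their values had been seen. Their GRO levels lay between 1.54 and 2.62 in arrested cells (0 min), between -0.01 and 1.61 at 30 min, and between -0.72 and 0.12 at 60 min. In ChIP the corresponding ranges were from 1.54 up to 3.17, from -0.12 up to 0.71, and from -1.57 up to 0.20. These members had high ratios in the arrested cells, but 3 of the 4 were dim spots. From 0 to 30 min they changed by -2.39 to -1.005 in GRO and -3.29 to -1.36 in ChIP, and from 30 to 60 min by a further -1.50 to -0.58 in GRO and -1.74 to -0.47 in ChIP. 3 of the 4 passed the test for a lower ChIP level at 30 min (background 3.59%) and 2 passed it in GRO (background 3.39%). The same changes picked these 4 members, so nothing is read from these counts. The GRO and ChIP changes from 0 to 30 min over all 37 members had a Pearson r of 0.52 and a Spearman rho of 0.28 (n = 37 spots from the same hybridizations), against 0.32 and 0.23 over all usable spots, given as descriptions. Without these 4 members the Pearson r was 0.0012 (n = 33 spots). They were picked by the same 2 changes, and all usable spots were not trimmed in this way, so nothing is read from the drop.

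The member with the largest early loss had ChIP values of 2.75, 3.60 and 3.18 at 0 min, of -0.10, 0.09 and -0.33 at 30 min and of -0.83, -0.71 and -0.23 at 60 min. Its GRO values were 3.01, 2.26 and 1.86, then 0.97, -0.41 and -0.60, then -0.20, -1.26 and -0.32. All values at 0 min were above all others in both assays, while 30 and 60 min overlapped in both. The change from 0 to 30 min was -3.29 in ChIP (SE 0.26, limma adjusted p = 0.000177) and -2.39 in GRO (SE 0.50, adjusted p = 0.0352). The ChIP call held with each of the 9 ChIP hybridizations left out, and the GRO call was lost without any 1 of 5 GRO hybridizations, namely 0 min replicate 1 or 2, 30 min replicate 2 or 3, or 60 min replicate 3 (adjusted p = 0.0524 to 0.103). The spot was dim in genomic DNA, at percentile 12.8.

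Spot R11 - C9 : 3 (row 11, column 9, position 3 of its block) was the member with the largest mean fall over the 4 differences among 5 members with complete data whose 60 min values lay below all others in both assays. Its ChIP values were 3.24, 2.83 and 3.10 at 0 min, 0.57, 0.83 and 0.74 at 30 min and 0.31, 0.04 and 0.25 at 60 min. Its GRO values were 1.12, 1.44 and 2.05 at 0 min, -0.29, 0.23 and 0.34 at 30 min and -0.51, -0.90 and -0.75 at 60 min. The 3 times did not overlap in either assay and stepped down in order. The step from 30 to 60 min was -0.81 in GRO (limma adjusted p = 0.292) and -0.51 in ChIP (adjusted p = 0.184), and neither passed. The spot was bright, at percentiles 74.1 in genomic DNA and 74.5 in WCE, with IP intensities of 1140 to 2407 at 0 min and 308 to 580.0 at 60 min.

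From 0 to 30 min R11 - C9 : 3 fell by 2.34 in ChIP (SE 0.18, limma adjusted p = 0.000124) and by 1.44 in GRO (SE 0.30, adjusted p = 0.0346). The GRO call was lost with the replicate block (limma adjusted p = 0.0573) and without any 1 of 7 GRO hybridizations, all but replicate 1 at 0 and at 60 min (adjusted p = 0.0549 to 0.0812). When the changes of the 2 assays were compared on z-scores within each hybridization, the GRO change was less negative than the ChIP change by 1.38 z-score units (SE 0.32, limma interaction, adjusted p = 0.0474). It was the only member of 37 for which the assays differed at this threshold, against 1.52% of 5642 spots, and 8 members passed an unadjusted p below 0.05 (background 17.1%). On plain log2 ratios 0 members passed the limma interaction test and 5 passed an unadjusted p below 0.05. The z-score call was also lost when any 1 of 13 of the 18 hybridizations was left out.

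Spot R13 - C3 : 10 stayed high through 30 min and then fell. Its GRO values were 1.24, 1.83 and 2.53 at 0 min, 0.76, 1.81 and 1.05 at 30 min and -0.64, -0.72 and 0.10 at 60 min. Its ChIP values were 1.11, 1.31 and 1.19, then 0.99, 0.70 and 0.64, then 0.38, -0.11 and -0.26. The values at 60 min lay below all others in both assays, whereas 0 and 30 min overlapped in GRO. The change from 0 to 30 min was -0.66 in GRO (SE 0.41, limma adjusted p = 0.376) and -0.42 in ChIP (SE 0.20, adjusted p = 0.266), and neither passed. The spot was dim (percentiles 3.51 and 9.59): its run-on RNA intensity was 6.22, 2.25 and 202.5 in the 3 replicates at 60 min over genomic DNA intensities of 6.36, 2.55 and 143.6, so replicate 3 was over 20 times brighter than the others while the ratio stayed between -0.72 and 0.10.

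The 2 members with the largest mean rise from 0 to 30 min were taken from 12 with complete data that rose in both assays. Since the rule puts 60 min below 30 min, the highest mean of such a member lies at 30 min by the choice. Spot R7 - C18 : 7 had GRO values of -0.85, -1.20 and -1.25 at 0 min, 0.21, 0.52 and 0.08 at 30 min and -2.24, -3.10 and -1.60 at 60 min. The 3 times did not overlap in GRO. The rise to 30 min was 1.37 (SE 0.36, limma adjusted p = 0.0685), which did not pass. Its ChIP values were -1.28, 0.55 and -0.23, then 0.22, 0.26 and -0.02, then -2.35, -0.15 and -0.47, which overlapped between 0 and both other times. Its ChIP change from 0 to 30 min was 0.48 (SE 0.60, limma adjusted p = 0.674), which did not pass. Its ChIP difference between 60 and 0 min rested on replicate 1 at 60 min, since it was 0.014 without that replicate. The spot was among the dimmest, at percentiles 4.15 and 1.40.

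Spot R3 - C19 : 10 rose in ChIP. Its ChIP values were -0.25, -0.07 and 0.39 at 0 min, 1.54, 0.89 and 1.08 at 30 min and -0.35, -0.37 and -0.70 at 60 min. No value at 30 min overlapped with another time, and the change from 0 to 30 min was 1.15 (SE 0.24, limma adjusted p = 0.0268). Its GRO values were -0.46, 0.94 and -1.46 at 0 min, -0.21, -0.17 and 0.15 at 30 min and -1.36, -1.40 and -1.06 at 60 min. The GRO replicates at 0 min spanned the values of both other times, and the GRO change to 30 min was 0.25 (SE 0.51, adjusted p = 0.815), or -0.31 without replicate 3 at 0 min. The other 2 members called higher at 30 min in ChIP changed by 1.12 (SE 0.27, adjusted p = 0.0456) and 0.82 (SE 0.19, adjusted p = 0.0368), and neither spot was dim. Each of the 3 ChIP rises was lost on leaving out some single ChIP hybridization, 4 of 9 for R3 - C19 : 10 (0 min replicate 1 or 2, 30 min replicate 1 or 3; limma adjusted p = 0.0564 to 0.0956) and 8 and 7 of 9 for the others.

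**Figure D5:**
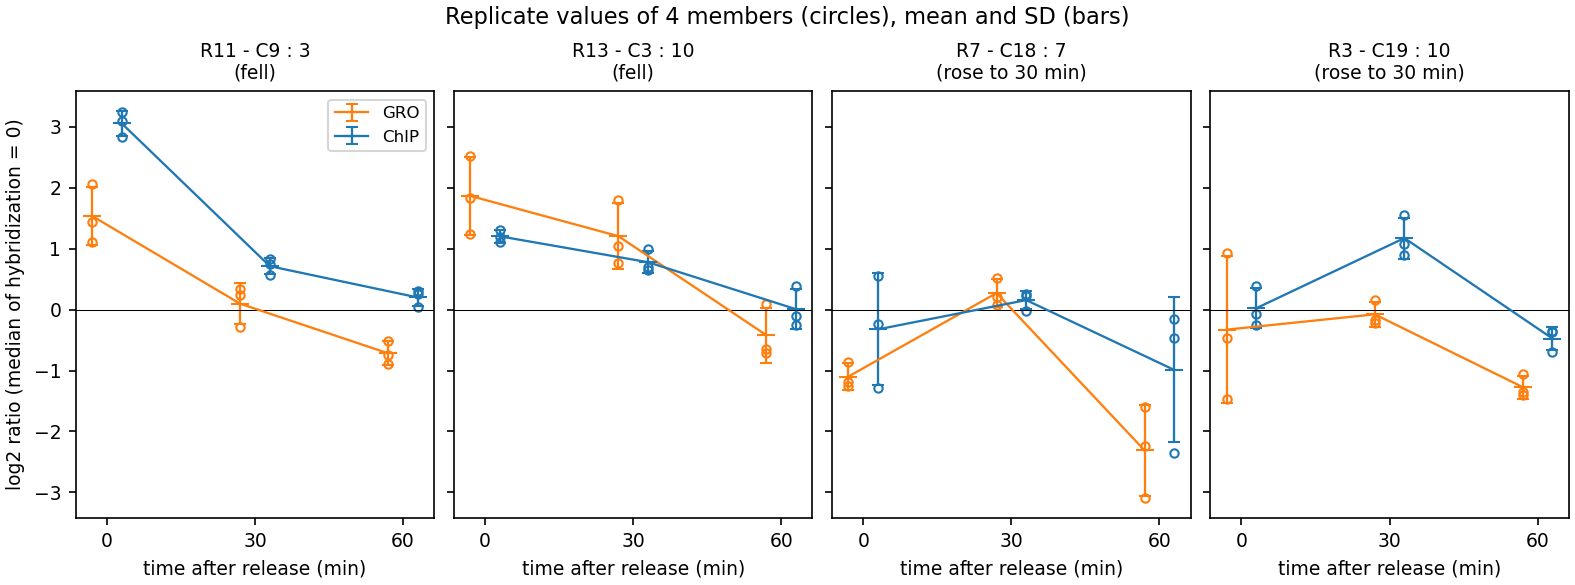
Levels of the 4 named members at 0, 30 and 60 min in GRO (orange) and RNAp ChIP (blue), as log2 ratios; circles are the 3 replicates, and lines join their means with SD bars. R11 - C9 : 3 steps down at both intervals, of which the second did not pass the test in either assay. R13 - C3 : 10 falls mainly after 30 min, and R7 - C18 : 7 in GRO and R3 - C19 : 10 in ChIP are highest at 30 min.

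Not every member was clearly separated at 60 min. All 60 min values lay below all other values in 12 of 37 members in GRO (background 2.9%) and in 16 in ChIP (background 2.25%), a contrast that the rule used, so that nothing is read from the difference. In both assays at once this held for 5 members. These are 5 of the 8 such spots in all (background 0.142%), and 4 of the 5 were not dim. In the member whose profile over the 18 hybridizations was most like the median profile of the others (Pearson r = 0.83), GRO values were 0.27, -0.08 and -0.20 at 0 min, -0.33, 0.03 and -0.34 at 30 min and -1.18, -1.77 and -1.72 at 60 min. Its ChIP values were -0.01, 0.41 and 0.24, then -0.39, -0.01 and -0.10, then -1.30, -0.46 and -0.84. This bright spot (percentiles 88.2 and 79.5) had mean GRO levels of -0.0032, -0.21 and -1.55 and mean ChIP levels of 0.21, -0.16 and -0.86 at the 3 times, so that the larger difference lay between 30 and 60 min in both assays. Another 2 of the 5 had GRO levels below the median at 0 min (-2.18 and -0.63). Likeness to the median profile ranged from 0.21 to 0.83 over the members, with a median of 0.57, where points share hybridizations and the members chosen share the fall.

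At single spots, few of the falls used by the rule passed a test over the whole array. The limma fits called 6 of 37 members lower in GRO between 60 and 0 min (background 1.77%) and 1 between 60 and 30 min (background 0.0702%). In ChIP they called 7 between 60 and 0 min (background 1.48%) and 4 between 60 and 30 min (background 0.48%). Nothing is read from these counts, since the same contrasts chose the members. Between 60 and 0 min, R11 - C9 : 3 and R13 - C3 : 10 were among the members called in both assays.

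To see the fall in hybridizations that had no part in the choice, the rule was applied to 2 replicates and the third was read. The rule then chose 35, 35 and 60 spots when replicate 1, 2 or 3 was held out. In the replicate held out, the median difference of those spots between 60 min and the other times was -0.69 to -0.28 in GRO and -0.57 to -0.20 in ChIP, compared with -0.09 to 0.03 and -0.01 to 0.06 over all spots. The difference was below 0 in 55.9% to 76.5% of chosen spots in GRO, against 48.8% to 55.5% of all spots. In ChIP it was below 0 in 58.6% to 82.9%, against 45.2% to 51.1%. The share past the limit of the rule was 42.4% to 55.9% in GRO (all spots 21.6% to 27.8%) and 39.7% to 60.0% in ChIP (all spots 19.0% to 23.7%). These shares do not measure the fall alone, since the 2 sets of spots were not matched for spread and a wider spread places more values past a limit. The median within-time SD was 0.696 in GRO and 0.385 in ChIP for the 37 members, against 0.397 and 0.297 over all usable spots. The weakest case was replicate 3 in GRO between 60 and 0 min, where 55.9% of the chosen spots and 55.5% of all spots were below 0, with medians of -0.31 and -0.09. All 12 medians of the chosen spots lay below those of all spots, and they were smaller than the falls of the 37 members in the means that chose them. The 12 medians are not independent, since both differences of an assay use the same 60 min value and the 3 choices share spots. Of the chosen spots, 15, 14 and 24 were among the 37 members. Most chosen spots were thus not members, so these values describe the members only in part. In GRO the held-out replicate was not fully separate from the others, since 60 min replicate 2 shares its filter with 0 min replicate 3.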

How the data were processed

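GRO and RNAp ChIP were measured at 0, 30 and 60 min after release, with 3 replicates of each, taken per the labels from 3 experiments. Beyond this the sources do not say how separate the replicates are, so p-values measure the spread between these hybridizations. The deposited unit is intensity: the authors hybridized filters bearing PCR-amplified coding sequences, scanned them in a phosphorimager and quantified background-subtracted spot density in ArrayVision, and the files hold these values before any normalization between hybridizations. The study's later steps, a minimum over local background, ribosomal DNA spots as the background of the ChIP ratios and global median normalization, are not part of the deposited values. Neither the local background nor the ribosomal DNA spots were used here, so that the ChIP levels are relative to the median spot only. IP and WCE DNA was amplified before labelling. The number of hybridizations limits the precision, since arrays have no read depth.

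From the files, intensities of 0 were set to missing, log2 ratios of run-on RNA over genomic DNA of the same filter and of IP over WCE of the same replicate were formed, and the median of every hybridization was set to 0. A spot was usable in an assay with at least 2 of 3 values at every time. The members and all settings were chosen with earlier results of these data known. The 9 hybridizations of an assay entered 1 limma fit (version 3.58.1, R 4.3.3, moderated by eBayes), with Benjamini-Hochberg adjustment over all usable spots at 0.05, and the difference between assays with an interaction term on z-scores. Dim spots are those in the lowest 25% of mean genomic DNA or WCE intensity. The fits and the rule were tested on simulated data. Named spots are the 2 members with the largest mean fall among those complete and separated at 60 min in both assays, and the 2 with the largest mean rise to 30 min among those complete and rising in both. Other members were singled out after their values were seen.

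Deviations from the group means of same-numbered replicates correlated at 0.50, 0.13 and 0.17 between 0 and 30 min in GRO, where replicate 1 shares a filter, and this was taken as a pairing for that comparison only; in ChIP at these times the values were 0.09, 0.03 and -0.02. Alternatives were quantile normalization, other denominators, removal of dim spots, complete data, the ChIP titles, limits moved by 0.2, fits on 2 times, the replicate block, removal of block medians, and leaving out hybridizations. The third GRO replicate at 30 min was used although its sample description names fewer. Simple ratios, centring and 3 replicates make dim spots the least certain values.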

Additional observations from a re-analysis of the deposited data

Results flagged for a closer look

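Spot R11 - C9 : 3 was picked out because the change from 0 to 30 min differed between the 2 assays by the test of the difference itself. On z-scores within each hybridization the GRO change exceeded the ChIP change by 1.38 (SE 0.32, limma interaction, adjusted p = 0.0474), with all 3 values at 30 min below all 3 at 0 min in each assay. On the log2 scale the changes were -1.44 in GRO and -2.34 in ChIP. The difference did not pass on plain log2 ratios. Groups here hold 3 hybridizations, too few to look for single outlying samples.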

How the results depend on the processing

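The number of members depended most on the denominators and the limits. The 37 became 14 without the dimmest spots, 289 with a mean denominator, 273 without denominators, 12 with limits stricter by 0.2 and 128 with limits looser by 0.2; quantile normalization gave 39 spots (27 of the 37), complete data 28 (28) and the ChIP titles 32 (0). Leaving out 1 hybridization gave 29 to 44 spots that held 26 to 36 of the 37. Called members at 30 against 0 min, 2 in GRO and 6 in ChIP, became in GRO 1 without dim spots, 1 with block medians removed and 0 in fits on 2 times or without filter 1, and in ChIP 1 with a mean or without a denominator and 3 in fits on 2 times or with the titles. Called members at 60 against 0 min in GRO became 2 without dim spots, 10 with a mean denominator, 11 without denominators, 1 with block medians removed, 2 without filter 1 and 3 on 2 times; in ChIP they became 4 with block medians removed or on 2 times. At 60 against 30 min they became in GRO 2 with quantile normalization or complete data, 3 without dim spots or without denominators, 4 with a mean denominator and 0 with the titles, on 2 times or without filter 1 (11 to 20 at an unadjusted p below 0.05), and in ChIP 2 with either denominator change or the titles and 7 with block medians removed. Members called for a difference between assays became 2 with complete data and 0 with either denominator change, block medians removed or plain log2 ratios (limma, 3 to 5 at an unadjusted p below 0.05). The median GRO change from 0 to 30 min was -0.19 with the titles.

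With the replicate number as a block, 1 member was called at 30 against 0 min in GRO and 3 in ChIP (3 higher calls lost), 2 at 60 against 0 min in GRO, and 0 in GRO and 2 in ChIP at 60 against 30 min. Over all spots the block gave 137 calls against 298 without it in GRO at 30 against 0 min, and 182 against 309 in ChIP. Only GRO at 0 and 30 min was treated as paired, and the cause of the other losses was not tested.

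Leaving out 1 hybridization, the called members at 30 against 0 min were 0 to 2 in GRO and 3 to 7 in ChIP, at 60 against 0 min 0 to 8 and 4 to 9, at 60 against 30 min 0 to 2 and 1 to 6, and for the difference between assays 0 to 1. The median change from 0 to 30 min was -0.17 to 0.24 in GRO and -0.13 to 0.14 in ChIP. Over all spots the GRO calls at 30 against 0 min were 112 to 298.

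Directions of single ChIP differences turned as follows. With the titles, 60 minus 30 min became 0.51 at R11 - C9 : 3, 0.77 at R13 - C3 : 10, 1.15 at R7 - C18 : 7 and 1.65 at R3 - C19 : 10, 60 minus 0 min became 0.48 at R7 - C18 : 7 and 1.15 at R3 - C19 : 10, and 30 minus 0 min became -0.67 and -0.50 at the same spots. At R13 - C3 : 10, 30 minus 0 min became 0.073 with a mean denominator, 0.11 without one and 0.59 with block medians removed. At R7 - C18 : 7, 60 minus 0 min became 0.32 and 0.35 with the first 2 and -1.15 to 0.014 leaving out 1 hybridization (0.014 without 60 min replicate 1). In GRO, 30 minus 0 min at R3 - C19 : 10 was -0.31 to 0.88 leaving out 1 hybridization (-0.31 without 0 min replicate 3).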
